A study of Mus musculus with 4 samples.

Results

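The 9 genes described here carry the signal of leukaemia inhibitory factor (LIF) in mouse embryonic stem cells (ESCs). They are the receptor chains Lifr and Il6st, the kinase Jak1, the transcription factor Stat3, the feedback inhibitor Socs3 and the target genes Pim1, Pim3, Bcl3 and Gbx2. They were taken by name for these roles, with earlier results of these data known, and all 9 were found among the 50559 genes of the count table. Polyadenylated RNA was sequenced from E14 mouse ESCs 48 h after transfection with siRNA at 150 nM. One group received a non-targeting siRNA (siNT) and the other an siRNA against Cnot1 (siCnot1), with 2 biological replicates in each. All 4 cultures grew on gelatin in KnockOut Serum Replacement medium with LIF at 1000 U/ml, so no sample lacked the cytokine. The ESCs carried a tdTomato transgene driven by the MERVL promoter, and which siRNA sequence against Cnot1 was used is not given in the sources used here.

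LIF holds mouse ESCs in self-renewal. It binds LIFR, which pairs with gp130, the product of Il6st, and the joined receptor activates JAK kinases. These phosphorylate STAT3, which enters the nucleus and switches on target genes, among them Socs3, whose protein binds the receptor complex and shuts the kinases off again. CNOT1 holds together the CCR4-NOT complex, which shortens poly(A) tails and so starts the decay of many mRNAs. Short-lived mRNAs of cytokine responses often carry AU-rich elements in their 3′ UTR, and others carry sites for Pumilio proteins, and both kinds of element are known to bring in CCR4-NOT.

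The siRNA target itself was strongly reduced. The normalised level of Cnot1, in CPM (counts scaled to a common library total), was 913 and 986 in the siNT libraries and 185 and 192 in the siCnot1 libraries, which left 19.8% of the siNT mean (log2 fold change −2.33, SE 0.0587, adjusted p = 2.37e-18, edgeR quasi-likelihood test, adjusted over all genes tested by the Benjamini-Hochberg method, as for every adjusted p below). Each library held between 32135824 and 32557440 counts. Of the 18144 genes tested, 2719 (15.0%) were higher and 2668 (14.7%) lower in siCnot1 cells at an adjusted p under 0.05. The 7 pluripotency markers summed to between 6268 and 6618 CPM in siNT cells and to between 5211 and 5444 CPM in siCnot1 cells, and 6 of them fell, Zfp42 being the one that did not pass. The 4 markers of 2-cell-like cells summed to between 41.9 and 44.1 CPM in siNT cells and to between 115 and 120 CPM in siCnot1 cells, and 3 of them rose. The 5 primitive endoderm markers summed to between 9.28 and 11.3 CPM in siNT cells and to between 15.4 and 15.8 CPM in siCnot1 cells. Only 1 of them, Dab2, rose (log2 fold change 1.02, adjusted p = 0.000139). Its level was 4.15 CPM in both siNT libraries and 8.33 and 8.46 CPM in the siCnot1 libraries. Gata4 and Sox17 (log2 fold changes 0.79 and 0.72) and Gata6 and Sox7 (−0.11 and −0.10) did not pass. The 4 trophectoderm markers summed to between 18.4 and 18.8 CPM and to between 19.1 and 22.7 CPM in the respective groups. Of the 3 tested, 1, Krt7, rose (log2 fold change 2.52, adjusted p = 0.0200). It stayed under 1 CPM in every library, with 2 and 4 counts in siNT and 16 and 22 in siCnot1 libraries. The 5 feeder or fibroblast markers summed to between 8.94 and 12.2 CPM and to between 12.7 and 13.3 CPM, with Dcn at 0 in every library, and 1 of the 3 tested, Col1a1, rose (log2 fold change 1.4, adjusted p = 0.000541). The 3 mesoderm markers summed to at most 5.01 and 4.51 CPM, with T at 0 in every library and neither of the 2 tested passing. The 3 neuroectoderm markers summed to between 31.1 and 31.8 CPM and to between 28.0 and 29.7 CPM, and 1 of them, Pax6, fell (log2 fold change −0.80, adjusted p = 0.0150). In these bulk samples, fewer cells of a type and less RNA per cell cannot be told apart, and the part of these marker shifts in the results below was not tested.

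All 9 signalling genes were well above the low-count filter and were tested. One of them, Lifr, was higher in siCnot1 cells, 7 were lower (Il6st, Stat3, Socs3, Pim1, Pim3, Bcl3 and Gbx2) and Jak1 did not pass the test. The median log2 fold change over the 9 was −0.25, beside 0.01 over all genes tested. A comparison nearer to their level is the 9370 genes of at least 10 CPM in siNT cells, where the median was −0.05, with 14.5% higher and 24.7% lower. The 7 pluripotency markers had a median of −0.22, close to that of the 9 genes. The siNT and siCnot1 values did not overlap for 8 of the 9 genes, beside 63.9% of all genes tested, so a gap between the groups was common throughout the table. The changes were small: none of the 9 met the rule the study used to call genes, a p of at most 0.05 with at least a 2-fold change, which 6.18% of the genes passed in the higher direction and 1.80% in the lower. With 1 library left out, between 2 and 5 of the 9 were called lower, the fewest without the first siNT library, while the direction of each of the 7 held in every such fit.

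**Figure D1:**
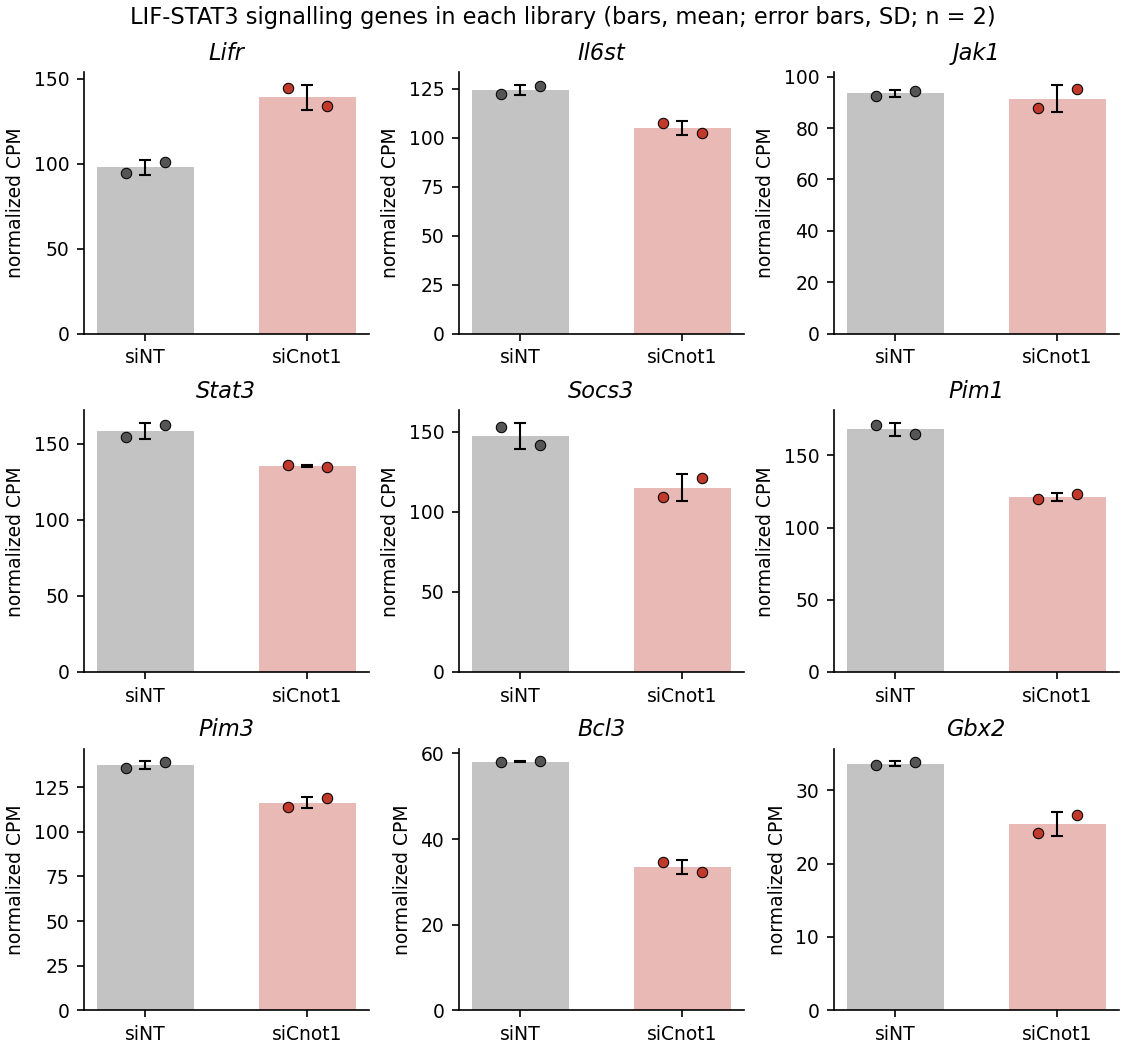
Normalised level of the 9 signalling genes in each of the 4 libraries, in CPM, 1 panel per gene. Points are libraries, bars are group means from 0 and error bars are SDs (n = 2). Lifr is higher in both siCnot1 libraries, Jak1 overlaps between the groups, and the other 7 genes are lower in both siCnot1 libraries.

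The receptor chains moved in opposite directions. Lifr, the chain that binds LIF itself, lies on chromosome 15 at 7120091 to 7226970 on the plus strand (positions of all 9 genes are as listed in the count table, in GRCm39 numbering). Its level was 94.8 and 101 CPM in the siNT libraries and 144 and 134 CPM in the siCnot1 libraries. Both siCnot1 values lay above both siNT values, and Lifr rose to 142% of the siNT mean (log2 fold change 0.51, SE 0.0646, adjusted p = 2.50e-06). Il6st encodes gp130, the chain shared by the receptors of the whole interleukin-6 cytokine family, and lies on chromosome 13 at 112600604 to 112643394 on the plus strand. Its level was 122 and 126 CPM in the siNT libraries and 107 and 102 CPM in the siCnot1 libraries. The groups did not overlap, and Il6st fell to 84.3% of the siNT mean (log2 fold change −0.25, SE 0.0625, adjusted p = 0.00430). Per base of listed exon length, the ratio of Lifr to Il6st was 0.412 and 0.425 in siNT cells and 0.715 and 0.697 in siCnot1 cells. On this measure Il6st was the higher of the pair in every library. In CPM, Lifr was the higher in both siCnot1 libraries. The order in siCnot1 cells thus rests on the listed lengths, 10755 bases for Lifr and 5719 for Il6st. The listed length of Il6st is hardly longer than the 3′ UTR of 5641 bases in the GENCODE transcript used below, so these sources differ for this gene. The call for Lifr held in each of the 13 alternative fits, over which its log2 fold change lay between 0.45 and 0.62. The call for Il6st did not: the adjusted p was 0.0686 without the first siNT library (log2 fold change −0.27), 0.0895 without the second (−0.22), 0.0990 without the second siCnot1 library (−0.22), and 0.0959 when libraries were scaled by their totals alone (−0.14).

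Lifr and Il6st have the longest 3′ UTRs of the 9 genes, 6320 and 5641 bases in the GENCODE transcript used (GRCm38), and were the only 2 to hold more than 1 Pumilio motif (TGTANATA, sense strand). Lifr held 5, and genes that fell held the motif too, with 2 in Il6st, 1 in Pim1 and 1 in Gbx2. Neither Lifr nor Il6st held the AU-rich heptamer TATTTAT. Among 3′ UTRs of 0.5 to 2 times the Lifr length, 56.7% held at least 1 Pumilio motif, and among those of 0.5 to 2 times the Il6st length 54.2% did. The share with more than 1 motif was not counted. The sites of Lifr are shown because Lifr is the gene of the set that rose. The motif is in capitals, and the sequences are from the plus strand of chromosome 15 in GRCm38. The first and second stretches are nearly identical to each other.
Lifr chr15:7192685-7192714: ggaactcactaTGTAGATAaggccagcctc
Lifr chr15:7192751-7192780: ggaactcactaTGTAGATAaggccggcctc
Lifr chr15:7193561-7193590: ctctgtgggtgTGTATATAggagtagccta
Lifr chr15:7195788-7195817: tttgtccaaggTGTAAATAgaatttgctta
Lifr chr15:7197317-7197346: aacatagatgaTGTAAATAgcctaagacac
Across the table, the 3235 tested genes with TGTANATA in the 3′ UTR (23.5% of 13753) had a median log2 fold change of 0.02, with 19.8% higher and 16.4% lower, and those without it also had a median of 0.02, with 16.9% higher and 16.6% lower.

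Jak1, the kinase bound to gp130 that starts the phosphorylation cascade, showed no detectable change. It lies on chromosome 4 at 101009171 to 101122493 on the minus strand. Its level was 92.5 and 94.5 CPM in the siNT libraries and 87.7 and 95.3 CPM in the siCnot1 libraries, so the groups overlapped. The log2 fold change was −0.03 (SE 0.0667, adjusted p = 0.774), with a 95% interval from −0.17 to 0.11, and its sign turned to 0.08 with library totals alone and to 0.02 without the first siCnot1 library. The 3′ end of Jak1 overlaps Raver2 on the other strand, an RNA-binding protein gene with 447 and 436 counts in siNT and 755 and 805 counts in siCnot1 libraries, up to 25.7% of the Jak1 counts. Whether the counting used strand is not given in the sources used here, so an exchange of reads between the 2 genes was not tested.

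Stat3, the transcription factor that carries the signal to the nucleus, lies on chromosome 11 at 100777632 to 100830447 on the minus strand. Its level was 155 and 162 CPM in the siNT libraries and 136 and 135 CPM in the siCnot1 libraries. Every siCnot1 value was below every siNT value, and Stat3 fell to 85.4% of the siNT mean (log2 fold change −0.23, SE 0.0597, adjusted p = 0.00543). This call depended on having all 4 libraries: the adjusted p was 0.0557 and 0.0959 without the first and the second siNT library and 0.0723 and 0.0819 without the first and the second siCnot1 library, at log2 fold changes from −0.27 to −0.19. With library totals alone it was 0.126 (log2 fold change −0.12). These counts measure Stat3 mRNA and give no account of the phosphorylated protein, which is the active form.

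Socs3, the feedback inhibitor that STAT3 induces, lies on chromosome 11 at 117856905 to 117860192 on the minus strand. Its level was 153 and 142 CPM in the siNT libraries and 109 and 121 CPM in the siCnot1 libraries. Both siCnot1 values were the lower ones, and Socs3 fell to 78.0% of the siNT mean (log2 fold change −0.36, SE 0.0659, adjusted p = 0.000216). Without the first siNT library, its higher one, the log2 fold change was −0.31 and the adjusted p 0.0823, and the other 3 such fits stayed under the threshold. Per base of listed exon length, Socs3 stood at 1.67 and 1.47 times Stat3 in the siNT libraries and at 1.35 and 1.51 times in the siCnot1 libraries. This ratio overlapped between the groups.

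Socs3 was also the only one of the 9 genes with the STAT-type palindrome TTCNNNGAA in its RefSeq promoter window (250 bases before to 50 after the start, 11 entries for the 9 genes, GRCm38.p6). The pattern is the same on both strands, its N standing for any base, and 8.30% of 32851 promoter windows held it. The stricter form TTCCNGGAA was in none of the 11 entries and in 1.15% of all windows. The match begins at position −154 from the start site and is printed in capitals within its stretch on the minus strand.
Socs3 promoter chr11:117969486-117969545: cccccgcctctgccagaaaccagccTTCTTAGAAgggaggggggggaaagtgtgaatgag
A window of this size does not reach distal elements, and the match is a description of letters, not of a bound site.

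The 4 target genes Pim1, Pim3, Bcl3 and Gbx2 all fell. Pim1 and Pim3 encode related serine/threonine kinases that promote survival and self-renewal. Pim1 lies on chromosome 17 at 29709759 to 29715085 on the plus strand, and its level was 171 and 165 CPM in the siNT libraries and 119 and 123 CPM in the siCnot1 libraries. It fell to 72.2% of the siNT mean with no overlap between the groups (log2 fold change −0.47, SE 0.0600, adjusted p = 2.72e-06), a call that held in each of the 13 alternative fits. Pim3, on chromosome 15 at 88746397 to 88749929 on the plus strand, was at 136 and 139 CPM in the siNT libraries and at 114 and 119 CPM in the siCnot1 libraries. It fell less, to 84.7% of the siNT mean (log2 fold change −0.24, SE 0.0610, adjusted p = 0.00431). Its adjusted p was 0.0685, 0.0836 and 0.100 without the first siNT, the second siNT and the first siCnot1 library (log2 fold changes −0.26, −0.22 and −0.21), and 0.0965 with library totals alone (−0.13). The ratio of Pim1 to Pim3 per base of listed exon length was 1.12 and 1.05 in siNT cells and 0.932 and 0.924 in siCnot1 cells. On this measure Pim1 was the higher of the pair in both siNT libraries and the lower in both siCnot1 libraries. In CPM, Pim1 was the higher in all 4 libraries. The change of order thus rests on the listed lengths, 2715 bases for Pim1 and 2419 for Pim3.

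Bcl3, an IκB family protein that works with NF-κB subunits in the nucleus, showed the largest change of the 9 genes. It lies on chromosome 7 at 19542387 to 19556691 on the minus strand. Its level was 58.0 and 58.2 CPM in the siNT libraries and 34.7 and 32.3 CPM in the siCnot1 libraries, with a wide gap between the groups. It fell to 57.6% of the siNT mean (log2 fold change −0.80, SE 0.0856, adjusted p = 2.56e-07), and its log2 fold change lay between −0.85 and −0.69 over the 13 alternative fits, all of which kept the call. Gbx2, a homeobox transcription factor that can sustain ESCs downstream of STAT3, was the least abundant of the 9 in counts. It lies on chromosome 1 at 89855684 to 89858898 on the minus strand, and its level was 33.4 and 33.9 CPM in the siNT libraries and 24.2 and 26.6 CPM in the siCnot1 libraries. The groups did not overlap, and Gbx2 fell to 75.5% of the siNT mean (log2 fold change −0.40, SE 0.0977, adjusted p = 0.00280). Its adjusted p was 0.0757, 0.0726 and 0.0903 without the first siNT, the second siNT and the first siCnot1 library, at log2 fold changes of −0.42, −0.40 and −0.34. A transcript listed antisense to Gbx2, LOC102637806, fell too, from 71 and 63 counts to 27 and 36 counts (log2 fold change −1.19, adjusted p = 0.0141), and held up to 6.83% of the Gbx2 counts.

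Of the genes that fell, Socs3, Pim1, Pim3 and Gbx2, hold the AU-rich heptamer TATTTAT in the 3′ UTR, and the other 5 genes of the set do not. Pim1 holds 4 overlapping copies, Socs3 2 overlapping copies, Pim3 2 separate copies and Gbx2 1. Among 3′ UTRs of 0.5 to 2 times the same length, 31.9% held the heptamer for Pim1, 33.5% for Socs3, 26.1% for Pim3 and 20.0% for Gbx2. The sites are shown with the heptamers in capitals, in GRCm38, on the plus strand for Pim1 and Pim3 and on the minus strand for Socs3 and Gbx2.
Pim1 chr17:29495691-29495720: taatgTATTTATTTATTTATTTATttggtt
Socs3 chr11:117966135-117966164: tgcacataTATTTATATTTATactcagaaa
Pim3 chr15:88865221-88865250: ccacggtctctTATTTATggtgtgatcacc
Pim3 chr15:88865268-88865297: cctgctggggcTATTTATtgtttaatttat
Gbx2 chr1:89928418-89928447: gatacactaaaTATTTATtatacaacccta
Bcl3, which fell the most, has a 3′ UTR of 410 bases with neither the heptamer nor the Pumilio motif. Across the table, the 3726 tested genes with the heptamer (27.1% of 13753) had a median log2 fold change of 0.05, with 20.3% higher and 14.9% lower. Those without it had a median of 0.01, with 16.5% higher and 17.2% lower. The genes with the heptamer also had longer 3′ UTRs, with a median of 1937 bases against 676. What part the heptamer has in these changes was not tested.

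Per kilobase of listed exon length, the order of the levels changed between the groups. In siNT cells the means ran from Pim1 at 61.8 ± 1.68 FPKM (SD, n = 2) through Pim3 at 56.8 ± 0.934, Socs3 at 54.0 ± 2.94, Stat3 at 34.4 ± 1.16, Bcl3 at 31.5 ± 0.0662, Il6st at 21.7 ± 0.479, Gbx2 at 15.8 ± 0.161 and Jak1 at 15.5 ± 0.229 to Lifr at 9.10 ± 0.407 FPKM. Pim3 and Socs3 did not differ beyond the spread of their libraries, and Gbx2 and Jak1 stood within 1 FPKM of each other. In siCnot1 cells Pim3 led at 48.1 ± 1.34 FPKM, followed by Pim1 at 44.7 ± 0.966 and Socs3 at 42.1 ± 3.05, which overlapped, then Stat3 at 29.4 ± 0.185. Il6st at 18.3 ± 0.640 and Bcl3 at 18.1 ± 0.925 FPKM were now level with each other, Jak1 stood at 15.1 ± 0.892, Lifr at 12.9 ± 0.684, and Gbx2 was last at 12.0 ± 0.793 FPKM, overlapping with Lifr. Bcl3 thus lay above Il6st in siNT cells by more than their spread and was not separable from it in siCnot1 cells.

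**Figure D2:**
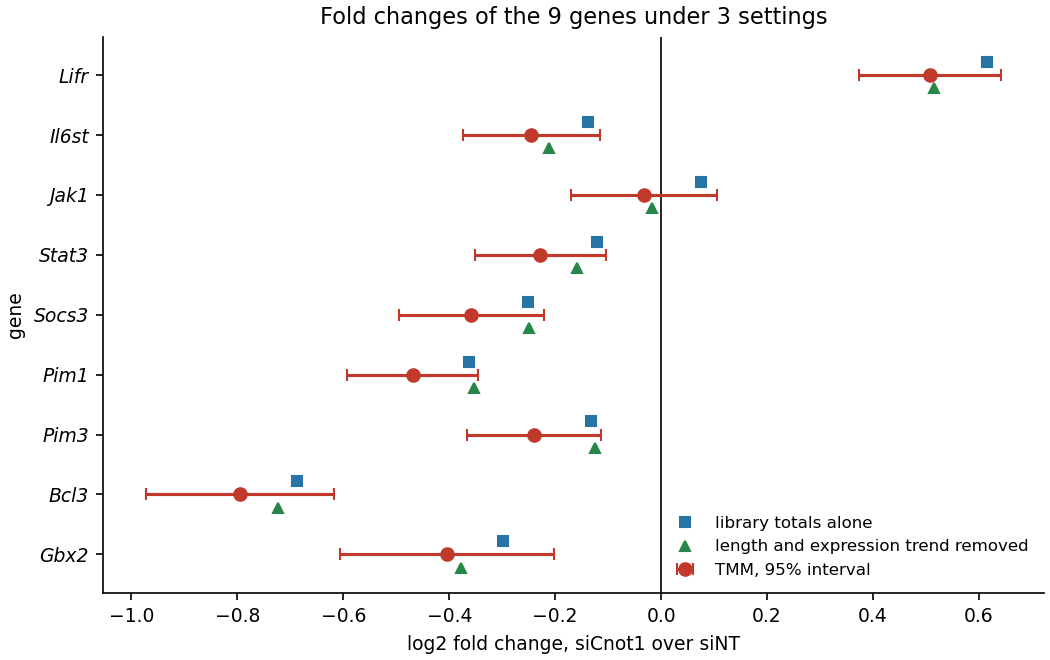
Log2 fold change (siCnot1 over siNT) of the 9 genes under 3 settings, TMM scaling with its 95% interval, library totals alone, and an offset for the trend on gene length and expression. Points right of 0 are higher in siCnot1 cells. Lifr stays above 0 and Bcl3 furthest below it in each setting, while Jak1 turns from −0.03 to 0.08 with library totals alone.

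Scaling and gene length both moved with these values. With library totals alone the median log2 fold change of all genes tested moved from 0.01 to 0.12, and the share of calls in the higher direction from 50.5% to 71.9%. Under that scaling 4 of the 9 genes stayed lower (Socs3, Pim1, Bcl3 and Gbx2), Lifr stayed higher, and Il6st, Stat3 and Pim3 no longer passed. Fold changes also rose with gene length among the 9370 genes of at least 10 CPM, from a median of −0.19 in the shortest of 10 length classes (deciles over all genes tested) to 0.03 in the longest. Bcl3, in class 3 (median −0.11), and Pim1, in class 4 (median −0.08), lay below the medians of their classes, and Lifr, in class 10, lay above its own. Jak1 was within the quartiles of its class, while Pim3 at −0.24 lay just below the lower quartile of class 4 at −0.23. Gbx2, in the same class, lay further below it at −0.40. Socs3 (−0.36), Stat3 (−0.23) and Il6st (−0.25) lay below the lower quartiles of classes 5, 7 and 8, at −0.22, −0.18 and −0.16. When a trend on length and expression was taken out, an adjustment chosen after the data were seen, the log2 fold change of Pim3 was −0.12 (adjusted p = 0.107), that of Stat3 −0.16 (adjusted p = 0.0298) and that of Socs3 −0.25 (adjusted p = 0.00162).

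**Figure D3:**
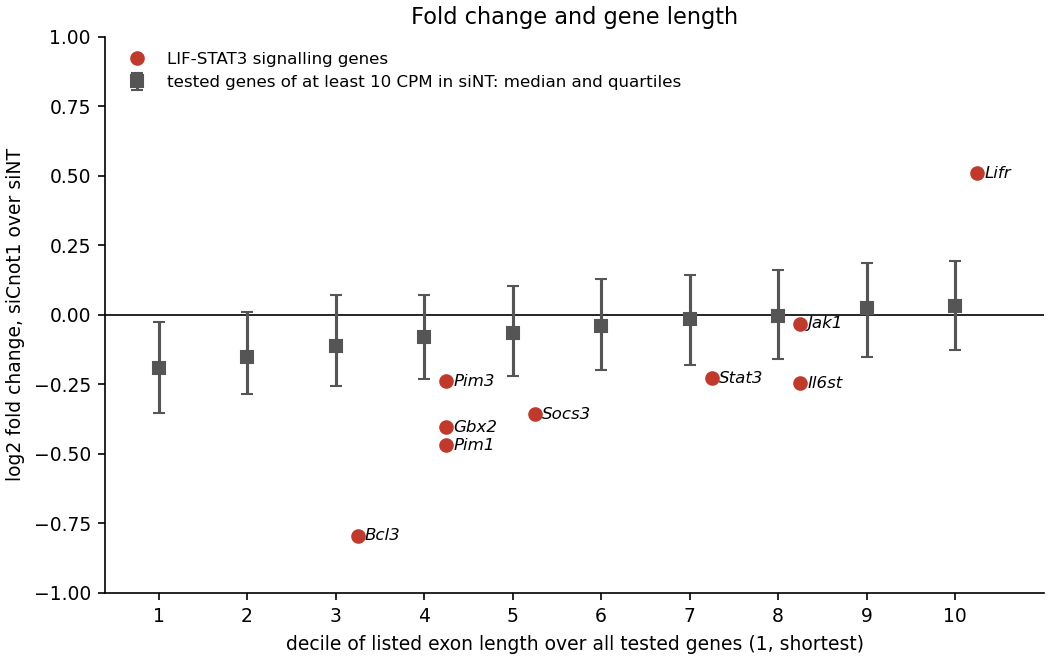
Log2 fold change (siCnot1 over siNT) by class of listed exon length (deciles over all genes tested, 1 the shortest). Squares are the medians of the tested genes of at least 10 CPM in siNT cells, bars run from their lower to their upper quartile, and red points are the 9 signalling genes, drawn beside their class. The medians climb from −0.19 to 0.03, and Bcl3, Lifr and Pim1 stand furthest from the medians of their classes.

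The rest of the pathway was followed in 6 lists. Of the 11 interleukin-6 family ligands and other receptor chains, 7 were tested and 1 was higher, beside 15.0% of all genes tested. That gene was Lif itself, at 5.08 and 4.24 CPM in the siNT libraries and 7.73 and 6.49 CPM in the siCnot1 libraries (log2 fold change 0.61, SE 0.19, adjusted p = 0.0177). The receptor chain Il11ra1 and the ligand Ctf1 had log2 fold changes of 0.47 and 0.57 and did not pass (adjusted p = 0.102 and 0.283). Il6 had no count in any library, and Il6, Il11, Cntf and Osmr were not tested. The median over the 7 was 0.47, and Lif lost its call with any 1 library left out. With all 4 libraries it also lost the call under DESeq2, without a filter on low counts and under the length and expression offset.

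Of the 9 other JAK kinases and STAT factors, all tested, 3 were lower and 2 higher, with a median of −0.19, beside 14.7% lower and 15.0% higher over all genes tested. Among genes of at least 10 CPM in siNT cells, a level that all but Stat5a reached, 24.7% were lower and 14.5% higher. Stat4, known for its role in interleukin-12 signalling, was at 14.3 and 12.6 CPM in the siNT libraries and 4.42 and 5.92 CPM in the siCnot1 libraries, a fall to 38.4% (log2 fold change −1.38, SE 0.165, adjusted p = 1.09e-06). Stat6, the factor of interleukin-4 signalling, fell from 31.0 and 32.4 CPM to 20.9 and 16.3 CPM (log2 fold change −0.77, adjusted p = 1.81e-05). Jak3, the kinase of the common gamma chain, fell by 0.47 on the log2 scale (adjusted p = 0.000249). Stat5b rose by 0.43 (adjusted p = 0.0244) and Stat2 by 0.21 (adjusted p = 0.0457), but neither was called under DESeq2 or without a filter, and 1 gene of the list was higher with DESeq2 size factors or with the length and expression offset. Leaving out 1 library at a time left between 1 and 3 of these genes lower, 1 of them without the first siNT library, and at most 1 higher.

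Among the 14 negative regulators of JAK-STAT signalling, 3 were lower, 1 higher and 10 did not pass, with a median of −0.10. Over all genes tested 14.7% were lower and 15.0% higher. Among genes of at least 10 CPM in siNT cells, a level that all but Socs1 and Cish reached, 24.7% were lower and 14.5% higher. These counts do not stand above the background at that level. Socs2, a second feedback inhibitor, was at 77.4 and 78.2 CPM in the siNT libraries and 48.4 and 49.8 CPM in the siCnot1 libraries (log2 fold change −0.66, SE 0.0741, adjusted p = 4.31e-07). It thus fell in the same direction as Socs3, as did Socs6 (−0.37, adjusted p = 0.00296). Ptpn6, which encodes the phosphatase SHP-1, fell by 0.50 (adjusted p = 0.00154). The 1 gene that rose, Pias2, moved by 0.16 (adjusted p = 0.0441) and is named after its value was seen. No gene of the list was higher under DESeq2, with DESeq2 size factors or without a filter, and 4 were with library totals alone. Without the first siNT library, 1 of the 14 was lower, and none was higher in any of the 4 fits with 1 library left out.

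Of 8 other genes reported as LIF or STAT3 targets in ESCs, 4 were lower and none higher, with a median of −0.12. Over all genes tested 14.7% were lower, and among genes of at least 10 CPM in siNT cells 24.7% were. Ier3, Pramel7 and Cebpd of this list did not reach that level. Klf5, a Krüppel-like factor of the pluripotency network, was at 186 and 189 CPM in the siNT libraries and 133 and 140 CPM in the siCnot1 libraries (log2 fold change −0.46, SE 0.0591, adjusted p = 2.98e-06). Junb, an AP-1 subunit, fell from 29.8 and 25.6 CPM to 16.5 and 16.3 CPM (log2 fold change −0.75, adjusted p = 1.39e-05). Ier3, an immediate early gene, was at 13.0 and 6.67 CPM in the siNT libraries and 3.79 and 4.42 CPM in the siCnot1 libraries, with the siNT libraries far apart (log2 fold change −1.26, SE 0.231, adjusted p = 0.000205). Tfcp2l1, a transcription factor of the naive state, fell by 0.15 (adjusted p = 0.0390). Klf4 (−0.08, adjusted p = 0.328) and Myc (0.06, adjusted p = 0.730) did not pass. With 1 library left out, 2 or 3 of the 8 were lower, 2 of them without the first siNT library, and 2 were lower when no filter was applied.

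The RAS-MAPK and PI3K-AKT branches, which LIF also feeds, held 16 genes, of which 5 were lower, 3 higher and 8 did not pass, with a median of −0.03. These counts are near the 24.7% lower and 14.5% higher of genes of at least 10 CPM. Ptpn11 encodes SHP2, the phosphatase that docks on gp130 and links the receptor to RAS. It was at 107 and 100.1 CPM in the siNT libraries and 143 and 143 CPM in the siCnot1 libraries, a rise to 138% (log2 fold change 0.47, SE 0.0623, adjusted p = 4.55e-06). Tbx3, a transcription factor at the end of the PI3K branch, fell by 0.33 (adjusted p = 9.25e-05). The fits with 1 library left out called 1 to 3 of the 16 lower and 1 or 2 higher, with 1 lower without the second siNT library. Library totals alone gave 2 lower and 5 higher. Of the 5 paralogs and partner proteins of the 9 genes, 2 were lower and none higher, beside 14.7% and 15.0% of all genes tested. All but Gbx1 and Nfkb2 reached 10 CPM in siNT cells, a level at which 24.7% of genes were lower and 14.5% higher. Both of the lower genes encode NF-κB subunits that can bind BCL3. Nfkb1 fell by 0.28 (adjusted p = 0.0102) and Nfkb2 by 0.50 (adjusted p = 0.0426), and the 2 siNT values of Nfkb2, 12.0 and 7.72 CPM, were spread more widely than its siCnot1 values of 6.81 and 7.17 CPM. The median of this list was −0.17, and at most 1 of the 5 was called lower with 1 library left out, none without the first siNT or the second siCnot1 library. DESeq2 called 1 of the 5 lower, and library totals alone and the fit without a filter called none.

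**Figure D4:**
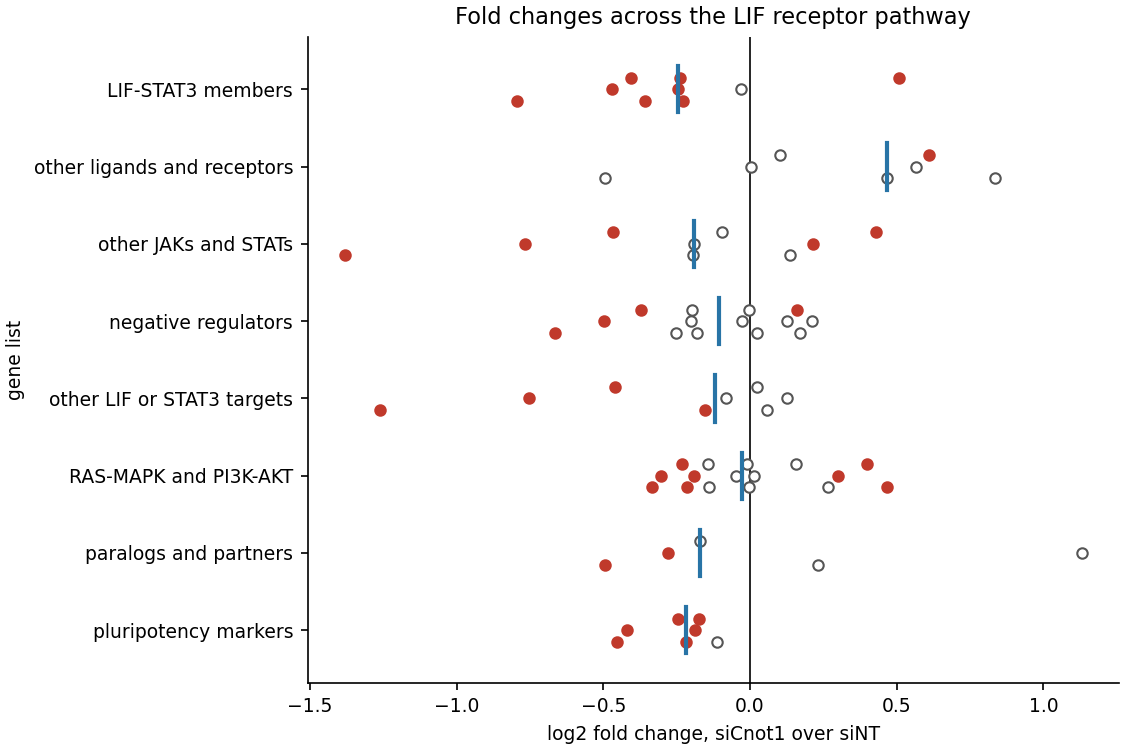
Log2 fold change (siCnot1 over siNT) of the 9 signalling genes, the tested genes of the 6 pathway lists and the 7 pluripotency markers, 1 point per gene. Filled red points have an adjusted p under 0.05 and the blue line is the median of each list. Medians run from −0.25 for the 9 genes to 0.47 for the ligands and receptor chains, and Stat4 lies lowest at −1.38.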

How the data were processed

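RNA was measured in 4 libraries, 2 siNT and 2 siCnot1. Per the labels, the libraries were made from polyadenylated RNA with dUTP in the second strand and sequenced in pairs. The submitters' processing notes name fastp 0.19.4, HISAT2 2.2.1, DESeq2 1.40.2 and mm10. The counter, its annotation and its strand setting are not given in the sources used here. The authors deposited raw read counts per gene with gene position and exon length, not normalised. The listed positions follow GRCm39: of 48779 genes matched by symbol to RefSeq GRCm38.p6, 974 had the same start and end. Promoters and 3′ UTRs were therefore joined by symbol.

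Counts were fitted in R 4.3.3 with edgeR 4.0.16 (TMM, filterByExpr with a minimum count of 10, glmQLFit and glmQLFTest), with condition as the only term, and adjusted by Benjamini-Hochberg over 18144 genes. Normalised CPM and FPKM used TMM-scaled totals, and 3 counts corresponded to between 0.0921 and 0.0934 CPM. SEs were taken from the F statistic. The exact permutation test of 2 against 2 cannot go below p = 0.3333 and was not used. P-values test the difference between siCnot1 and siNT libraries against the spread within the groups, as estimated with information shared across genes. On simulated data, 119 of 200 genes changed 1.5-fold were recovered, with 3 false calls among 18144 genes. The simulation gave every gene the same dispersion and changed no other gene. It is simpler than these data, so its figures do not give the recovery or the false calls in them.

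Alternatives were other scalings (DESeq2 size factors, upper quartile, library totals), other filters, DESeq2 1.42.0, limma-voom 3.58.1, a replicate block, leaving out each library, the study's rule, and a loess offset for length and expression, added after the data were seen. The genes and lists were chosen with earlier results of these data known. All 9 genes are named, with up to 3 genes of smallest adjusted p per list and every gene passing in the ligand, JAK-STAT, target and partner lists. One gene that this rule names is not reported here. For the 3′ UTR, the GENCODE M21 transcript with the longest coding sequence was used.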

Additional observations from a re-analysis of the deposited data

How the results depend on the processing

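The log2 fold changes of Lifr, Pim1 and Bcl3 kept their direction and passed in all 13 alternative fits. Library totals alone called 1563 genes and 4 of the 9 members lower, and gave Il6st −0.14, Stat3 −0.12, Pim3 −0.13, none of them passing, and Jak1 0.0752, a change of sign. The length and expression offset gave Pim3 −0.12, which did not pass. Without a filter, 1303 genes were higher and 1450 lower. The study's rule called 1121 and 326 genes and 0 and 0 members. With each library left out in turn, 743 to 1439 genes were higher, 871 to 1463 lower, and 2 to 5 members lower. The log2 fold changes then ranged from −0.29 to −0.22 for Il6st, −0.27 to −0.19 for Stat3, −0.44 to −0.29 for Socs3, −0.27 to −0.21 for Pim3, −0.48 to −0.34 for Gbx2 and −0.0990 to 0.0238 for Jak1. DESeq2 called 2095 genes higher and 2362 lower. With a replicate block, 2524 and 2431 genes and 1 and 7 members were called, which changed no member's call. The higher calls went from 2 to 1 among other JAK and STAT genes and from 1 to 0 among negative regulators. The lower calls went from 4 to 3 among other targets and from 2 to 1 among partners. Libraries sharing a replicate number did not vary together (correlation −0.00565). With 2 libraries in each group, this value cannot show whether the replicate numbers mark samples prepared side by side. With 2 libraries a group, the SEs of 0.0597 to 0.0977 of the 9 genes limit what could be resolved.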
